A study of Mus musculus with 2 samples.

Results

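Col1a1 and the sequence on both sides of it were examined in whole-genome bisulfite sequencing (WGBS) of primary mouse osteoblasts. The gene (ENSMUSG00000001506.10, GENCODE M21 on GRCm38) lies on the plus strand of chromosome 11 from 94936224 to 94953042. With 50 kb taken on each side, the locus ran from 94886224 to 95003042 and held 1700 CpGs, 317 of them in the gene body. Col1a1 is 1 of 21938 protein-coding genes in the annotation, and its locus covered 494 bins of 200 bp with calls. Of these, 112 could be tested, with 4 or more CG cytosines and on average 4 or more calls on each of them in both libraries. The WT library came from wild type C57BL/6 mice. The TCKO library came from C57BL/6 mice with Tet1fl/fl Tet2fl/fl Tet3fl/fl alleles and Prx1-Cre, which removes all 3 Tet genes. Both were from 3-day-old pups, with osteoblasts taken from calvarial bone and cultured for 3 days. Prx1 drives the Cre in limb and part of the skull mesenchyme, and the share of cultured cells that had recombined was not measured here. The study tested the loss of Tet RNA by RT-qPCR, which is not used here.

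There was 1 library per genotype, so no difference has a replicate check, every test compares the pair of libraries and not the genotypes, and every interval covers counting error only. Calls on the same read are not independent, so intervals may be too narrow and p-values too small. The WT library had 261062118 CG calls and TCKO 223581206, which is 5.97 and 5.11 calls per CG cytosine of the nuclear reference, with pooled levels of 70.2% and 76.3%. The exons removed by Cre are not given in the sources used here, so CG calls over the Tet genes are a description and no check of the labels. Of 26 Tet exons with at least 10 calls in a library and any in WT, the ratio of TCKO to WT calls ran from 0 to 1.42 with a median of 0.650. Whether the cells were osteoblasts could not be checked here, since bisulfite reads carry no expression. The Col1a1 body was shallower than the genome, with 2.32 calls per cytosine in WT and 1.96 in TCKO. Its ratio of TCKO to WT calls was 0.847, against 0.856 genome-wide.

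Col1a1 encodes the α1 chain of type I collagen, the main protein of bone matrix, which osteoblasts secrete in large amounts. A pair of α1 chains winds with one α2 chain, from Col1a2, into the collagen triple helix. TET enzymes oxidise 5-methylcytosine (5mC) at CG sites to 5-hydroxymethylcytosine (5hmC) and on towards unmethylated cytosine. Bisulfite treatment leaves 5mC and 5hmC unconverted alike, so a methylation level here is the sum of both. In most cells the start sites of active genes lack CG methylation, while gene bodies and intergenic sequence carry it. Enhancers tend to lie in between.

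The sequences below are 200 bp bins of the locus in which the libraries differed most by the test, 1 before the start site, 1 past the gene end and 2 far upstream. They are reference sequence of GRCm38 (RefSeq), plus strand, with every CpG in capitals.
Bin 1.5 kb before the start site, chr11:94934601-94934800: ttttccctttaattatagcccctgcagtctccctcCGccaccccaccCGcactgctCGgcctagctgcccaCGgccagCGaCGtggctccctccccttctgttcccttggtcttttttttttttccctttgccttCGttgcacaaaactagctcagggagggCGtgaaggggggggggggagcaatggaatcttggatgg
Bin 18.5 kb after the start site and past the gene end, chr11:94954601-94954800: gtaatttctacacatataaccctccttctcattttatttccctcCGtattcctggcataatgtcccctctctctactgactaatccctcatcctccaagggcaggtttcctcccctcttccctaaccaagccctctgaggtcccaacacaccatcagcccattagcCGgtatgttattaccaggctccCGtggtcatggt
Bin 18.9 kb before the start site, chr11:94917201-94917400: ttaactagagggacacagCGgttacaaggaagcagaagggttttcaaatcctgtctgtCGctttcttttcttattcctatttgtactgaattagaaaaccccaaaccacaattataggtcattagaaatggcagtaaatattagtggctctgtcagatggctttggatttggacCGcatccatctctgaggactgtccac
Bin 39.1 kb before the start site, chr11:94897001-94897200: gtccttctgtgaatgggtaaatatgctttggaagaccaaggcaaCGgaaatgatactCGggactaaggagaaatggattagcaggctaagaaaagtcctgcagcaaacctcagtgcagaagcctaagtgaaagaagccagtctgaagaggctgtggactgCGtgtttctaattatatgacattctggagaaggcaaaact
The bin before the start site is CpG-rich, with 16 CG cytosines over both strands. The other 3 bins have 6 each and differed by more. All 4 bins lie outside annotated genes.

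The locus as a whole rose from 53.5% in WT (95% Wilson interval 52.6% to 54.4%, 12299 calls) to 69.9% in TCKO (69.0% to 70.8%, 10391 calls), a difference of 16.4 percentage points. The gain was uneven. It was 31.5 points in the gene body, 40.6 points between 15 and 25 kb after the transcription start site (TSS), and 12.8 points far upstream. The far upstream region was taken from -50 to -2.33 kb, beyond an element that lies around -2.3 kb. Past 25 kb after the TSS the difference was 9.30 points (7.12 to 11.5), and at the start site itself no methylated call was seen in either library.

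**Figure D1:**
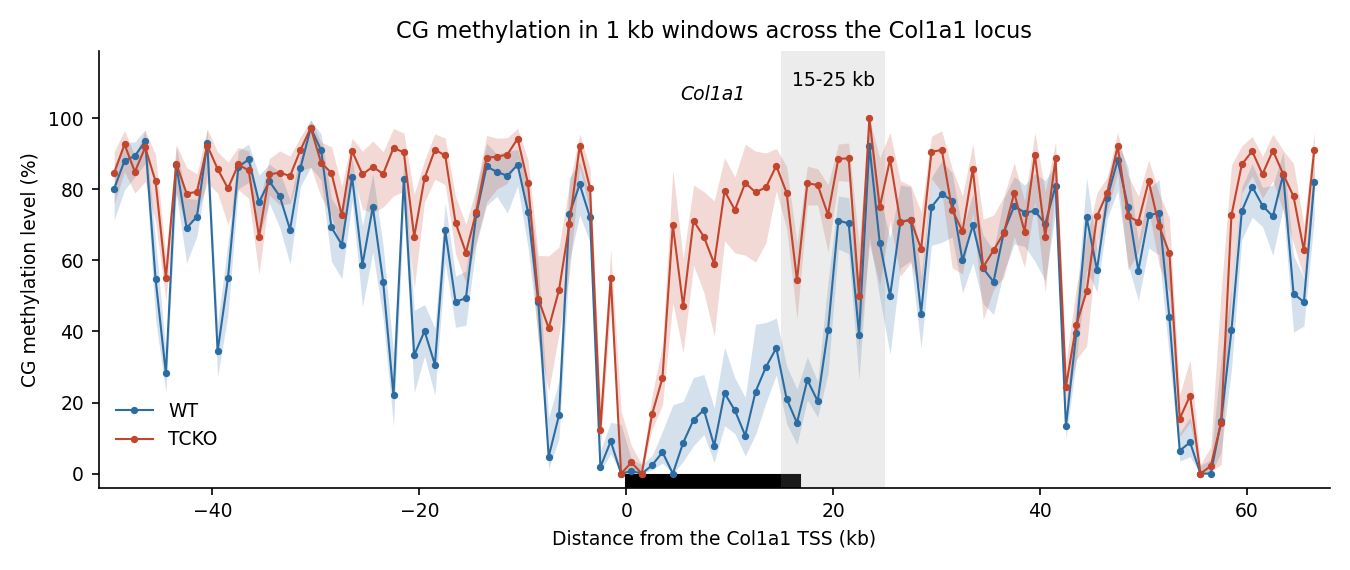
CG methylation level (%) in 1 kb windows counted from the Col1a1 TSS (kb), WT in blue and TCKO in red, with 95% Wilson intervals as bands, the gene as a black bar and the 15-25 kb region shaded. WT was below 50% in all 16 windows of the gene that start from the TSS to 15 kb, while TCKO was below 50% in 5 of them, and both libraries were at 0% in the window before the TSS.

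At the start site, from 1 kb before to 100 bp after the TSS, WT had 0% over 33 calls and TCKO 0% over 25 calls. All of these calls were on the minus strand, and the plus strand had 0 calls in both libraries. Counts of 0 at this depth allow levels of up to 9.09% in WT and 12% in TCKO, and the 95% Newcombe interval of the difference ran from -10.4 to 13.3 points. In the same window, 17% of 20928 protein-coding genes were higher in TCKO at an adjusted p below 0.05. Calls pooled in a gene window were tested by Fisher's exact test, 2-sided, and p was Benjamini-Hochberg adjusted across all genes that had 20 or more calls in each library. The low level went on into the gene. Over the first 2 kb, which hold exon 1, intron 1 and exon 2, WT had 0.351% (285 calls) and TCKO 1.51% (265 calls), a difference of 1.16 points with an interval from -0.696 to 3.48. Intron 1 alone had 0.452% over 221 calls and 2.15% over 186 calls. A difference in these first 2 kb was thus not detectable at this depth.

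Before the start site the order was different. In WT, low methylation reached to 3 kb before the TSS, with 2.02% (99 calls) between -3 and -2.33 kb, 22.5% (40 calls) in the element from 94933897 to 94934522, and 4.44% (135 calls) from the element to 1 kb before the TSS. In TCKO the upstream stretch had 9.30% (86 calls), the element 76.4% (55 calls) and the stretch after it 41.6% (101 calls). The differences were 7.28 points (0.51 to 15.4), 53.9 points (34.2 to 67.6) and 37.1 points (26.8 to 47.2). TCKO therefore had a higher pooled level between -2.3 and -1 kb than in the stretch on either side. The upstream stretch was uneven between strands. Its plus strand had 0% in WT (35 calls) and 24% in TCKO (25 calls), 24 points apart (8.06 to 43.4). Its minus strand had 3.1% (64 calls) and 3.3% (61 calls). On the other side, the 1 kb before the TSS had 0% in TCKO over only 18 calls.

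The 626 bp element is the stretch that the paper labels a differentially methylated region of this promoter and used in a reporter. It was thus labelled as differing before this test, which is a description and no independent support. The paper also reports hypermethylation of the Col1a1 promoter region in TCKO cells by bisulfite Sanger sequencing, which is not used here. The element passed the test with an adjusted p of 2.15e-05 (Fisher exact test, Benjamini-Hochberg over 16930 genes, of which 7.06% were higher in TCKO in the equivalent window). Its difference ranked 73. It rests on few calls and was uneven between strands. The plus strand had 10% over 20 WT calls and 92.6% over 27 TCKO calls. The minus strand had 35% (20 calls) and 60.7% (28 calls), a difference of 25.7 points with an interval from -2.69 to 48.8, which did not pass the test (Fisher exact test, adjusted p = 0.534). The minus strand of the next stretch, down to -1 kb, had 0.909% over 110 calls in WT and 40% over 85 calls in TCKO. The plus strand there had fewer calls, with 20% (25 calls) in WT and 50% (16 calls) in TCKO. That is a difference of 30 points with an interval from 0.845 to 54.7.

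The bin from 94934601 to 94934800, whose sequence is given above, lies in that stretch. WT had 1 methylated call among 87 (1.15%) and TCKO 30 among 72 (41.7%), with an adjusted p of 3.23e-09 by the Fisher exact test over all 2534629 testable bins. The TCKO level was uneven along the bin, counting positions from its first base. The CpGs at positions 36, 48 and 57 had 75%, 41.7% and 63.6% in TCKO over 12, 12 and 11 calls. Those at positions 72, 79 and 82 had 10%, 20% and 40% over 10 calls each. The 1 methylated call in WT was at position 36. Each level pools both strands of a CpG, and neighbouring CpGs share reads. The difference in this bin was only just over the 40 points required of a called bin.

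The gene body, from TSS to transcription termination site (TTS), had 12.1% in WT (10.5% to 13.9%, 1469 calls). That is low for a gene body: 1.97% of the 21625 protein-coding genes tested had a lower WT level, and their median was 69.4%. In TCKO it was 43.6% (40.9% to 46.4%, 1244 calls), still below the median of 75.8%. The difference of 31.5 points (28.3 to 34.7) had an adjusted p of 4.41e-77 (Fisher exact test) and ranked 37, where 64.4% of genes were higher in TCKO and the median difference was 5.66 points.

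Within the body, cut into 10 equal segments, the difference grew with distance from the TSS and then levelled off. In segment 1 WT had 0.431% (232 calls) and TCKO 1.99% (201 calls), 1.56 points apart with an interval from -0.754 to 4.59. In segment 2 they had 1.90% (368 calls) and 12.7% (339 calls), 10.8 points apart (7.08 to 14.9). By segment 3, from 3.36 to 5.05 kb, TCKO had reached 48.8% (80 calls) while WT was at 8% (75 calls). From segment 5 to segment 9 WT ran from 14.7% to 34.7% and TCKO from 67.5% to 85.4%, with differences of 50.6 to 60.1 points. Segment 10, which is nearly all exon 51 with the 3′ untranslated region, was lower than segment 9 in both libraries, at 16.8% (143 calls) and 67.2% (131 calls). The intervals of the libraries overlapped in segment 1 and in none of the other 9.

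**Figure D2:**
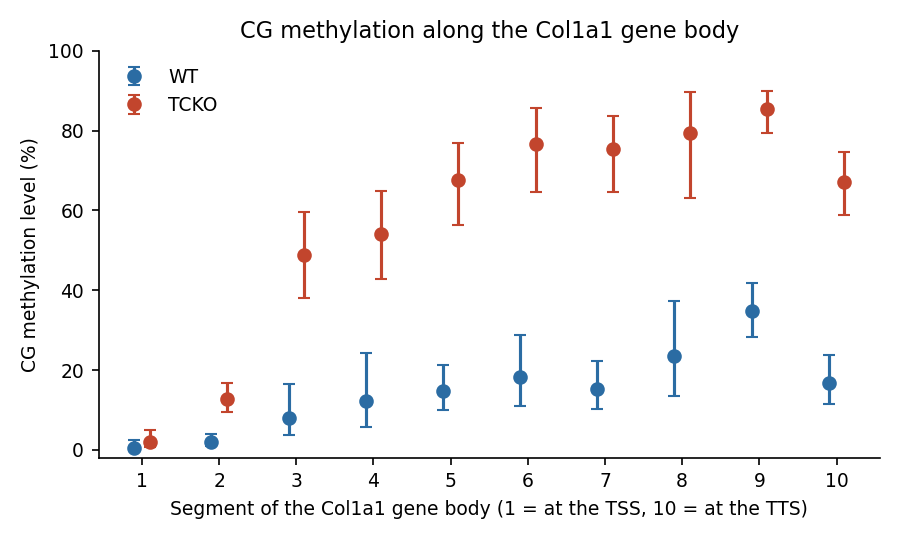
CG methylation level (%) in 10 equal segments of the Col1a1 gene body from TSS to TTS, WT in blue and TCKO in red, with 95% Wilson intervals as bars. The intervals overlap only in segment 1. WT stays at or below 34.7% throughout and TCKO climbs to 85.4% in segment 9.

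At the scale of 200 bp TCKO rose unevenly from about 2.2 kb on, with no sharp border. Of the 78 bins of the body, 36 had at least 10 calls in each library, and 6 of these 36 were also testable. The bin at 2.08 kb had 0% over 75 calls in WT and 0% over 91 in TCKO. The next, at 2.28 kb, had 0% (37 calls) and 10.5% (38 calls), and the one at 2.68 kb, in intron 5, had 2.27% (88 calls) and 36.5% (52 calls), which passed the Fisher exact test (adjusted p = 5.47e-06) but not the 40 points required of a called bin. After that TCKO was lower again, with 17.9% (28 calls) at 2.88 kb and 11.8% (34 calls) at 3.08 kb. WT had 0% (30 calls) and 2.33% (43 calls) there. Neither bin passed the Fisher exact test (adjusted p = 0.181 and 0.567). The bin at 4.28 kb, over exon 10, had 0% (12 calls) and 72.7% (11 calls). Over the 36 bins the median was 7.42% in WT and 42.0% in TCKO. TCKO was higher in 28, equal in 8 and lower in none, and 15 of the 36 were over 40 points higher. Across the genome, 64.2% of such bins were higher in TCKO and 3.61% were higher by over 40 points.

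Only 6 bins of the body could be tested, the farthest centred 3.08 kb after the TSS, and 0 were called. In windows of 1 kb with at least 20 calls in each library, a size chosen after the data were seen, 13 of 15 windows of the body passed the Fisher exact test with a higher level in TCKO, where 11.3% of all windows did. Of these, 8 were also over 40 points higher, by 41.8 to 63.3 points, against 1.36% of all windows. The largest difference, 63.3 points, was in the window over exons 41 to 43, with 18.2% in WT (33 calls) and 81.5% in TCKO (27 calls).

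Exons gained more than introns when the whole gene was pooled. The 51 exons went from 19.4% (654 calls) to 61.6% (571 calls), and the introns from 6.26% (815 calls) to 28.4% (673 calls). The gain in exons was 20.1 points larger, with an interval from 13.7 to 26.2 by the MOVER method, which combines the Newcombe intervals of the pair of differences. Both parts include the unmethylated 5′ end. Of the WT calls, 534 of 654 in exons and 265 of 815 in introns lay from 5 kb on. From 5 kb on, exons went from 23.2% (534 calls) to 75.9% (431 calls) and introns from 15.1% (265 calls) to 67% (197 calls), and the gain differed by 0.738 points (-8.48 to 10.5). The larger exons near the 3′ end had the most calls. Exon 48 had 20.6% (34 calls) and 86.0% (43 calls), and exon 50 had 53.8% (52 calls) and 90% (40 calls), the highest WT level among the body's exons and introns with at least 10 calls in each library. Exon 47 had 36.8% (19 calls) in WT and 100% (15 calls) in TCKO.

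**Figure D3:**
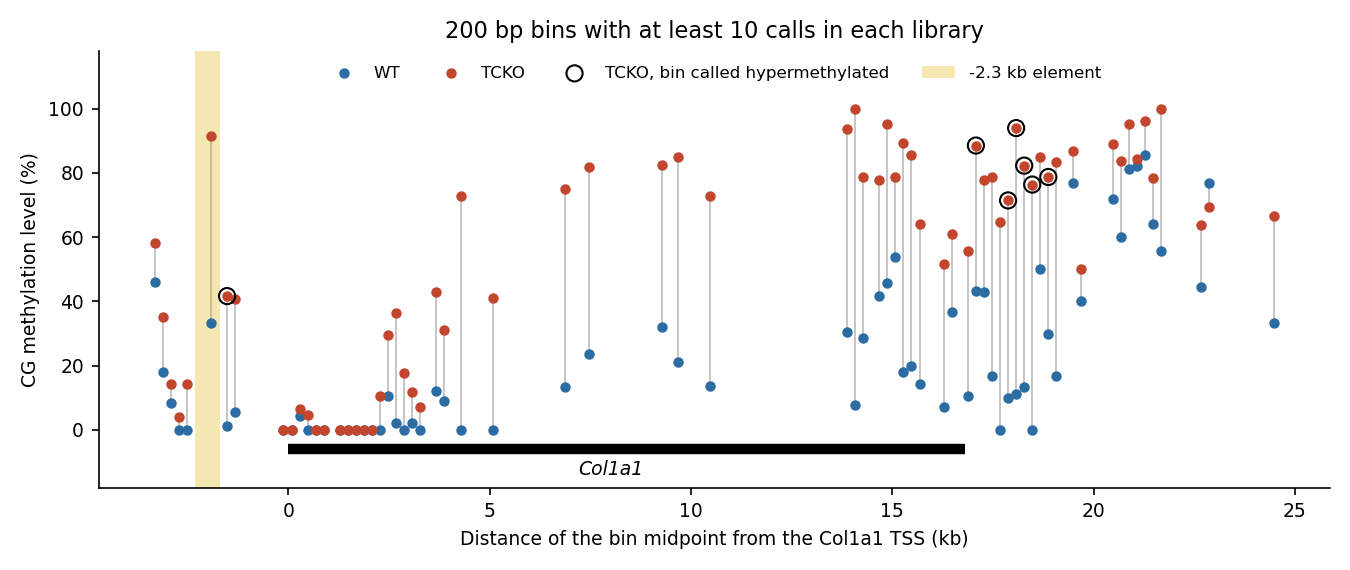
CG methylation level (%) of 200 bp bins with at least 10 calls in each library, by distance of the bin midpoint from the Col1a1 TSS (kb), WT in blue and TCKO in red joined by a line, with called bins circled, the -2.3 kb element shaded and the gene as a bar. In the range drawn, both libraries sit near 0% from the TSS to 2.08 kb, and the called bins are at -1.5 kb and between 17.1 and 18.9 kb.

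The deeper single cytosines showed the same shift, in part of the same calls. In the body, only 68 of 634 CG cytosines had at least 4 calls in both libraries. In WT 44 of them had no methylated call and 0 were fully methylated. In TCKO 18 had no methylated call and 9 were fully methylated. The level was higher in TCKO at 49, equal at 18 and lower at 1.

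Between 15 and 25 kb after the TSS the level was 38.5% in WT (35.6% to 41.5%, 1033 calls) and 79.1% in TCKO (76.5% to 81.5%, 1007 calls). The difference of 40.6 points (36.6 to 44.4; Fisher exact test, adjusted p = 3.90e-76) ranked 2 of 21897 genes, of which 59.3% were higher in TCKO in this window. The region starts inside the gene and ends outside it. Its first 1.8 kb, up to the gene end, went from 19% (153 calls) to 68.3% (142 calls), and the part past the gene end from 41.9% (880 calls) to 80.9% (865 calls). The gain past the gene end was 7.46 points larger than that of the gene body (2.12 to 12.7). The mean of single cytosines, in place of pooled calls, gave a gap of 0.288 points. The gene body includes the low first 2 kb. Without them the body gained 40.1 points (36.3 to 43.7), against 39.0 (34.7 to 43.1) past the gene end.

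The pooled WT level rose within this region. From the gene end to 20 kb WT had 24.4% (20.9% to 28.3%, 517 calls) and TCKO 79.2% (75.5% to 82.5%, 514 calls), a difference of 54.8 points. From 20 to 25 kb, a division made after the values were seen, WT had 66.9% (363 calls) and TCKO 83.5% (351 calls), a difference of 16.5 points (10.2 to 22.6). This part was not even, since the 1 kb window starting at 22 kb had 39.1% (46 calls) in WT and 50% (42 calls) in TCKO. The TCKO intervals on either side of 20 kb overlapped (79.2% to 87.0% on the far side), while the WT intervals did not (61.9% to 71.6%). The gain was uneven between strands, with 31.5 points on the plus strand and 48.2 on the minus strand. The WT levels there were 48.2% (467 calls) and 30.6% (566 calls) and the TCKO levels 79.7% and 78.7%.

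Past the gene end 12 bins could be tested and 6 were called hypermethylated (adjusted p below 0.05 and over 40 points higher in TCKO). They lay among the 7 testable bins before 20 kb, while none of the 5 from 20 kb on was called. In the testable bins of the genome the share was 2.86%. Of the called bins, 4 ran without a gap from 94954001 to 94954800. Along this run WT had 10% (30 calls), 11.1% (27 calls), 13.3% (75 calls) and 0% (59 calls). TCKO had 71.4% (42 calls), 93.9% (33 calls), 82.3% (62 calls) and 76.4% (55 calls). The bin before the run, at 17.7 kb, had 0% (39 calls) in WT and 64.7% (17 calls) in TCKO and was too shallow to test in TCKO.

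The bin from 94954601 to 94954800 had the lowest adjusted p of the locus, 5.52e-17 (Fisher exact test). Its 0 methylated calls in WT allow a level of up to 5.08%. All 3 of its CpGs, shown in the sequence, had 0 methylated calls in WT over 27, 17 and 15 calls. In TCKO they had 83.3% (24 calls), 81.2% (16 calls) and 60% (15 calls). No annotated gene covers it. The nearest feature downstream is Gm24877, a miscellaneous RNA gene 22.6 kb after the Col1a1 TSS.

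Far upstream the level was 66.9% in WT (65.6% to 68.1%, 5430 calls) and 79.7% in TCKO (78.5% to 80.9%, 4632 calls). The difference of 12.8 points (11.1 to 14.5; Fisher exact test, adjusted p = 3.96e-46) ranked 420 of 21923 genes, of which 80.9% were higher in TCKO in this window and whose median difference was 5.56 points. The gain in the gene body was 18.7 points larger (15.02 to 22.3). The WT level was near the median over genes, 68.8%.

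The largest far upstream differences lay in dips of the WT profile. Of 47 windows of 1 kb counted from the TSS, WT was below 50% in 11 and TCKO in 2. In the window starting at -40 kb WT had 34.5% (148 calls) and TCKO 85.7% (140 calls). At -23 kb they had 22.0% (59 calls) and 91.7% (36 calls), and at -19 kb 30.7% (88 calls) and 91.1% (79 calls). At -45 kb the dip was shared in part, with 28.2% (227 calls) in WT and 55.1% (247 calls) in TCKO. Among these windows the dip nearest the gene, from -9 to -6 kb, had 27.4% (208 calls) in WT and 49.0% (143 calls) in TCKO. Its window at -9 kb hardly differed, with 48.3% (87 calls) and 49.2% (61 calls). At -8 kb the levels were 4.76% (42 calls) and 40.9% (22 calls). At -7 kb they were 16.5% (79 calls) and 51.7% (60 calls). In these 11 windows the median difference was 35.2 points. In the other 36 it was 6.28 points, from -9.74 to 30.3, with 15 windows under 5 points apart and 5 over 20 points higher in TCKO. The widest of these was at -24 kb, with 54.0% (87 calls) and 84.3% (83 calls), while at -38 kb the libraries had 86.3% (161 calls) and 87.0% (123 calls). The grouping uses the WT level, which is also part of the difference, so it is a description.

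Of 61 testable bins far upstream, 7 were called hypermethylated, at -44.7, -39.5, -39.1, -23.1, -22.5, -18.9 and -18.1 kb. The whole locus had 14 called bins of 112 testable (12.5%, against 2.86% in the genome). It had 0 bins over 40 points lower in TCKO, by the adjusted and by the unadjusted p, against 0.035% in the genome. Among bins too shallow to test but with at least 10 calls in each library, 1 was over 40 points lower, at 51.3 kb, with 81.8% (11 calls) in WT and 30.8% (13 calls) in TCKO. Without the calls of the called bins the far upstream difference was 10.5 points (8.74 to 12.2), a step added after the data were seen. Among 138 bins with at least 10 calls in each library TCKO was higher in 100, lower in 36 and equal in 2.

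Both far upstream bins printed above were chosen for their low adjusted p. The bin at -39.1 kb had 0% in WT (38 calls, which allow up to 7.89%) and 75% in TCKO (36 calls; Fisher exact test, adjusted p = 2.22e-10). Its 3 CpGs had 81.8%, 90% and 60% in TCKO. The bin at -18.9 kb had 32.8% in WT (58 calls) and 100% in TCKO (41 calls; Fisher exact test, adjusted p = 6.07e-11). Its CpGs had 43.5%, 23.8% and 28.6% in WT and each was fully methylated in TCKO. The bin beside it, from 94917001, had 45.0% (111 calls) and 84.9% (106 calls), a difference of 39.9 points, just under the 40 required. The nearest annotated feature is Gm22456, a small nuclear RNA gene at -16.5 kb.

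Short strings of known factors were searched on both strands of the 14 called bins. TAATTA, the core bound by homeodomain proteins, was in 4 of them, among them the printed bins at -1.5 and -39.1 kb, against 7.24% of all testable bins. CATTCC, for TEAD factors, was in 2 (10.9%), CAGCTG, an E-box, in 1 (6.25%), and TGTGGT, for RUNX factors, in 1 (13.0%), the bin at -18.9 kb. TGAGTCA, for AP-1, and GGGCGG, a GC box, were in 0 of 14 (3.01% and 2.30% of all testable bins). Among the called bins of the genome, TAATTA was in 5.50%, a smaller share than in all testable bins. There CATTCC was in 15.4%, CAGCTG in 9.75%, TGTGGT in 19.8%, TGAGTCA in 8.56% and GGGCGG in 1.85%. No string of this search overlaps another as written. A match is a description of the reference sequence.

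Past 25 kb the neighbouring genes start. The 42 kb to the end of the locus went from 55.2% (4321 calls) to 64.5% (3476 calls), and none of its 32 testable bins was called. Sgca, which encodes α-sarcoglycan of the muscle dystrophin complex and lies on the minus strand, had a gene body of 66.4% in WT (1081 calls) and 74.0% in TCKO, 7.57 points higher (Fisher exact test, adjusted p = 0.000854). Hils1, a testis histone-like gene, had 68.8% (141 calls) and 73.8% (61 calls), a difference of 4.98 points that did not pass (Fisher exact test, adjusted p = 0.578). Ppp1r9b, which encodes spinophilin, a regulatory subunit of protein phosphatase 1, had 49.8% (1853 calls) and 58.2% (1403 calls), 8.42 points higher (Fisher exact test, adjusted p = 4.59e-06). All 3 differences were smaller than the 31.5 points of the Col1a1 body.

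Some windows of these neighbours cover Col1a1 sequence again. The 15-25 kb window of Sgca, 40.5 points higher in TCKO and ranked 3, covers nearly the same bases as that of Col1a1. The far upstream window of Hils1, 25.4 points higher and ranked 1, and that of Ppp1r9b, 23.4 points higher and ranked 3, contain all and most of the Col1a1 body, respectively, with the sequence past its end. Windows at the start of Ppp1r9b do not reach Col1a1. Its window 2.3 kb before the TSS went from 0% (22 calls) to 45.1% (51 calls; Fisher exact test, adjusted p = 0.00197) and ranked 169 of 16930. Its start site window was 19.6 points higher in TCKO (Fisher exact test, adjusted p = 0.0186).

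Col1a2, the partner chain on chromosome 6, was compared in the same windows. Its body went from 37.7% (4151 calls) to 77.8% (3511 calls), 40.1 points higher and ranked 11. The gain over the whole Col1a1 body was smaller, by 8.60 points on the percentage scale (a difference of -8.60, with an interval from -12.4 to -4.81). Without its low first 2 kb the Col1a1 body gained 40.1 points (36.3 to 43.7). The same cut at Col1a2 is not given here. Between 15 and 25 kb, which is inside the longer Col1a2 gene, Col1a2 went from 42% (1250 calls) to 84.8% (985 calls) and ranked 1 where Col1a1 ranked 2, and the gains differed by -2.15 points (-7.41 to 3.09). Far upstream they differed by 0.264 points (-2.13 to 2.66). The start site set them apart. Col1a2 had 14.3% (98 calls) in WT and 47.9% (121 calls) in TCKO there, against 0% in both libraries at Col1a1 on its minus strand alone, and the gains differed by -33.6 points (-48.4 to -15.7). In the window of the -2.3 kb element Col1a2 had under 20 calls in a library and was not compared.

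**Figure D4:**
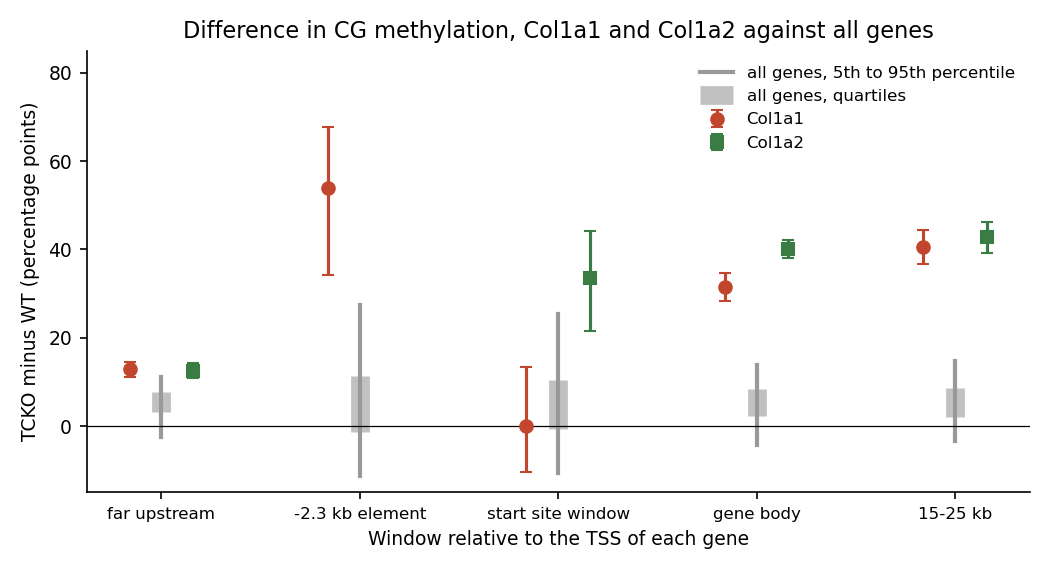
Difference in CG methylation (TCKO minus WT, percentage points) in 5 windows taken relative to the TSS of each gene, for Col1a1 (red circles) and Col1a2 (green squares) with 95% Newcombe intervals, beside the quartiles (grey boxes) and the 5th to 95th percentile (grey lines) of all tested protein-coding genes. Col1a1 lies above the 95th percentile in each window except the start site window, where its difference is 0.

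Genes for making, folding and cross-linking collagen were examined as a list of 32 with Col1a2 among them. In the gene body, 30 were higher in TCKO, 0 lower and 2 did not pass (P3h3 and Fkbp10), with a median difference of 9.41 points against 5.66 over all genes tested. Of all protein-coding genes, 64.4% were higher in the body and 2.79% lower. Apart from Col1a2, Sparc (osteonectin) rose by 22.3 points and Pcolce, an enhancer of procollagen cleavage, by 20.1 points, less than Col1a1. At the start site window 31 could be tested, of which 12 were higher, 0 lower and 19 did not pass, with a median difference of 4.91 points against 3.31 over all genes. Of all protein-coding genes, 17% were higher there and 1.65% lower.

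The largest start site differences in the list were at Plod2, Kif5b and Col1a2. Plod2, a lysyl hydroxylase of collagen telopeptides, went from 18.2% (176 calls) to 71.5% (214 calls). Kif5b, a kinesin heavy chain, went from 30.2% (126 calls) to 82.2% (90 calls). The 3 lowest differences were -15.2 points at Adamts2 and -13.9 at Adamts3, which are procollagen N-proteinases, and -10.1 at Plod3, and none of the 3 passed (Fisher exact test, adjusted p = 0.0568, 0.0502 and 0.0609).

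**Figure D5:**
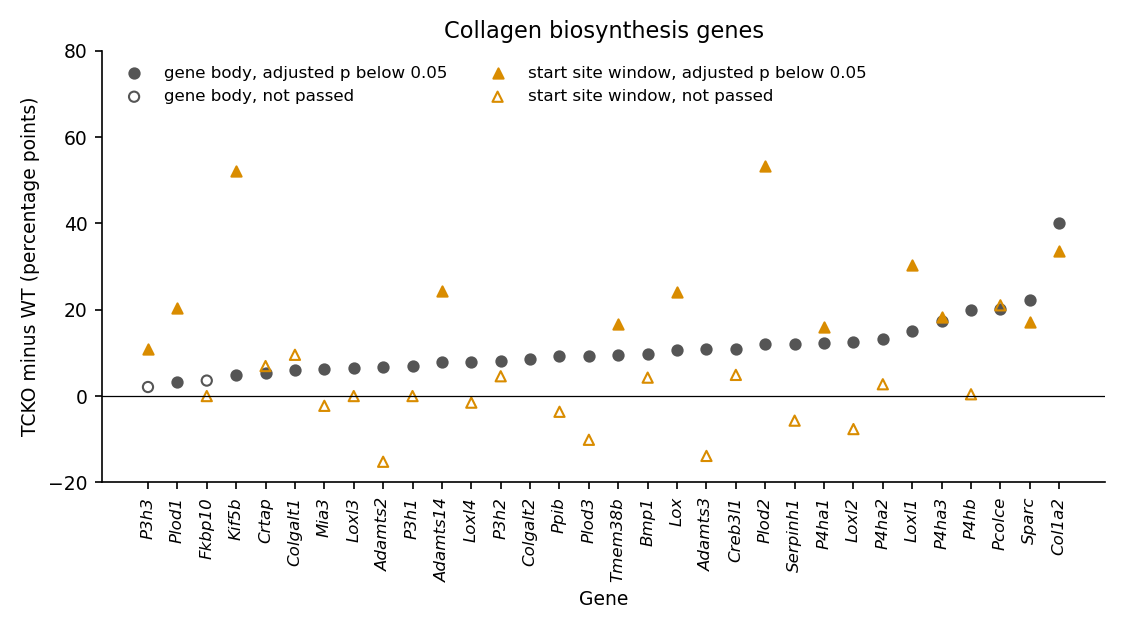
Difference in CG methylation (TCKO minus WT, percentage points) of 32 collagen biosynthesis genes in the gene body (grey circles) and the start site window (orange triangles), ordered by the gene body, with filled symbols for an adjusted p below 0.05. All gene body differences are above 0, from 2.10 to 40.1 points, while start site differences run from -15.2 to 53.3.

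Of 16309 genes with at least 20 calls in all 5 windows and both libraries, those most like Col1a1 over the 10 levels were Klf4, Lhx6, Ptbp1, Tspyl1 and Ost4. Their root mean square distances were 12.8, 13.3, 13.5, 13.7 and 13.9 points, where the median gene was 35.1 points away. Each of the 5 gained less than Col1a1 in both the gene body and the 15-25 kb region. Klf4, for example, had a body of 27.4% in WT and 32.6% in TCKO, and 68.8% and 68.4% between 15 and 25 kb. Ptbp1 had 13.9% and 57.7% in the window of the element and, like Col1a1, 0% in both libraries at the start site.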

How the data were processed

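The authors mapped WGBS reads with BSMAP 2.74 (genome GRCm38, unique hits only) and deposited, per strand and CG cytosine, a count of methylated calls beside a count of total calls, not normalized. Removal of duplicate reads is not given in the sources used here. One library per genotype was deposited, and groups follow the labels. Levels were methylated over all calls, pooled in 200 bp bins or windows. Pooled calls were tested by Fisher's exact test (2-sided), Benjamini-Hochberg adjusted over all testable bins, or over all protein-coding genes of GENCODE M21 with at least 20 calls in each library. Wilson, Newcombe and MOVER 95% intervals cover counting error only and may be too narrow, since calls on 1 read are not independent. The gene, its windows and the gene lists were chosen with earlier results of these data known. Genes named were Col1a1, its protein-coding neighbours, Col1a2, the 3 largest and 3 smallest start site differences of the collagen list and the 5 most similar genes; the collagen genes named for their bodies, and the -9 to -6 kb dip, were chosen after values were seen. Code was tested on simulated data. Data outside CG sites were left out. The tools were statsmodels 0.14.6, numba 0.67.0, numpy 2.4.6 and scipy 1.17.1 under Python 3.11.15.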

Additional observations from a re-analysis of the deposited data

How the results depend on the processing

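No paired analysis was possible because there is 1 library per genotype, and for the same reason no replicate could be left out. Every alternative kept the direction of the differences in the gene body, the 15-25 kb region, far upstream and the -2.3 kb element, and the start site difference stayed at 0. With the mean of single cytosines in place of pooled calls the gene body difference was 35.2 points, the far upstream difference 17.4, and the gap between the sequence from the gene end to 25 kb and the gene body 0.288. Without its first 2 kb the gene body difference was 40.1 points, against 39.0 past the gene end. Without its called bins the far upstream difference was 10.5 points. On the minus strand alone the -2.3 kb element differed by 25.7 points and did not pass the test (Fisher exact test, adjusted p = 0.534). Over all its alternatives it ran from 25.7 to 82.6 points, with adjusted p up to 0.534. Only from 5 kb after the TSS, the gain in exons was 0.738 points larger than in introns, with an interval that includes 0. The cause was not tested for any of these. The 14 hypermethylated bins became 32 with a mean of at least 1 call per cytosine, 1 with at least 10, 22 with a minimum difference of 20 points, 8 with 60 points and 4 with at least 8 CG cytosines in a bin, where 291, 18, 112, 112 and 28 bins could be tested. With at least 1 call, 12 of 39 testable bins of the gene body were called. Of all testable bins in the genome, 2.57% were called with at least 1 call and 1.91% with at least 10. Bins lower in TCKO stayed at 0 under all 9 alternatives. Of 55 alternatives in all, 44 kept the call or the value. A tested difference counted as kept when its call and direction stayed, whatever its size. The 16.5 points from 20 to 25 kb thus counted as kept, and so did the 9 alternatives with 0 lower bins. The element and the start site could not be tested with at least 4 calls per cytosine, nor the start site on the plus strand alone, for want of calls. The low depth over the gene body limits what its single bins can show. The division at 20 kb, the 1 kb windows, the exons from 5 kb on and the far upstream region without called bins were added after the data were seen.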
